A study of Mus musculus with 13 samples.

Results

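The MHC class II pathway was followed through 10 genes, taken by symbol from the 19838 genes counted in each library. They are H2-Ab1, H2-Aa and H2-Eb1, which encode chains of the peptide-binding molecules, H2-DMa, H2-DMb1, H2-DMb2, H2-Oa and H2-Ob, which encode the peptide editors, Cd74, the invariant chain, and Ciita, the transactivator of the group. All 10 were present in every count table. The 13 libraries came from snap-frozen aorta and from gastrocnemius, a leg muscle, of FVBxC57BL/6 mice at 88 weeks of age. The mice called dNdK here had the genotype GFP-FOXM1dNdKtg/+ Rosa26-rtTAtg/+ and gave 2 aorta and 3 muscle libraries. Their controls, called Rosa26, had the genotype GFP-FOXM1dNdK-/- Rosa26-rtTAtg/+ and gave 4 aorta and 4 muscle libraries. Every mouse thus carried the Rosa26-rtTA transgene, a transactivator that depends on doxycycline, and the dNdK mice carried in addition the allele labelled GFP-FOXM1dNdK, named for GFP and for FOXM1, a transcription factor of dividing cells. The labels name neither the promoter in front of that allele nor a doxycycline treatment, and they do not say whether libraries came from separate mice, so the p-values below measure the spread between libraries.

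Depth was 3919526 to 13683952 gene counts per library. Levels are given as CPM, the library's counts scaled to a common total, and 3 counts, taken as the floor, stood for 0.219 to 0.765 CPM. Foxm1 itself had 2 and 5 counts in dNdK aorta against 2 to 24 in Rosa26 aorta, and 0 to 3 in every muscle library. Whether the panel reads the transgene is not stated. The tissue labels were checked with marker genes. Myh4, the fast muscle myosin, stood at 30012 to 42910 CPM in muscle and at most 2.45 CPM in aorta. The aorta libraries held the smooth muscle myosin Myh11 at 71.9 to 103 CPM, but Tagln, another smooth muscle marker, at no more than 0.0807 CPM, and the brown fat gene Ucp1 at 5525 to 10148 CPM. The summed level of 4 heart muscle genes reached 1889 CPM in dNdK aorta and 2016 CPM in Rosa26 aorta.

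MHC class II molecules carry peptides from endosomes to the surface of B cells, dendritic cells and macrophages, where helper T cells read them. The invariant chain fills the groove of a new molecule until H2-DM exchanges its remnant for peptide, and H2-O restrains H2-DM. CIITA does not bind DNA itself. It is recruited to the X and Y boxes of class II promoters by RFX, CREB and NF-Y. Interferon gamma induces Ciita in many cell types.

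Promoters are shown because 7 of the genes varied together across libraries while H2-Aa and H2-Eb1 did not follow them, as described further on. In the mouse genome (GRCm38) 8 of the genes lie on chromosome 17, between the start of H2-Oa at 34092379 and the end of H2-Eb1 at 34316674, and Ciita lies on chromosome 16. RefSeq promoters (GRCm38.p6, 250 bases before to 50 after the start) were matched for 7 of the 10 genes. Both strands were searched for GATTGG, the core of the Y box, and for AGNNACNNA, a pattern of the X box written with these promoters in view. Each window ends 8 bases after a Y core and runs 5′ to 3′ on the gene's strand, with matches in capitals.
H2-Eb1, chr17:34305767-34305820, plus strand: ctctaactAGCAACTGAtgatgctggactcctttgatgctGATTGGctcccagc
H2-DMb1, chr17:34153089-34153142, plus strand: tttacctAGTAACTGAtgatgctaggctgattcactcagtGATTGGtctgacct
H2-Ob, chr17:34238807-34238860, plus strand: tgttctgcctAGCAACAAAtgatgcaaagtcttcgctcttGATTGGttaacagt
H2-Oa, chr17:34092295-34092348, plus strand: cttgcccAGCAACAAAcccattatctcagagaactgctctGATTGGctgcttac
H2-DMb2, chr17:34145118-34145171, plus strand: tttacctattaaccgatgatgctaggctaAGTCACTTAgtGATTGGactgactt
H2-Aa, chr17:34287859-34287912, minus strand: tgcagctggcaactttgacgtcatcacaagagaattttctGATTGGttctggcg

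In H2-Eb1, H2-DMb1, H2-Ob and H2-Oa the X pattern began 30 to 33 bases before the Y core. Of 32851 RefSeq promoters, 46.2% held the X pattern, 16.1% the Y core, and 0.146% the X pattern beginning 28 to 36 bases before the Y core, which is 48 promoters. In H2-DMb2 the X pattern in the window began 11 bases before the Y core. At the place where H2-DMb1 holds the pattern, H2-DMb2 reads attaaccga, which does not match it. H2-Aa held the Y core alone, and of the starts of H2-DMa 1 held the Y core alone and the other neither. A match is a match of letters and not a measured site, and a pattern without a match, as in H2-Aa, does not mean that an X box is absent.

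H2-Aa and H2-Eb1 were read on or off by library. H2-Aa, the alpha chain gene of the I-A molecule, had 5 and 1 counts in dNdK aorta, against 3, 17, 1579 and 2 counts in Rosa26 aorta 1 to 4. In muscle it had 2, 1 and 3 counts in dNdK, against 103, 1, 2 and 0 counts in Rosa26 1 to 4. H2-Eb1, the beta chain gene of the I-E molecule, had 0 counts in all 5 dNdK libraries, against 2, 0, 1534 and 0 counts in Rosa26 aorta and 94, 0, 1 and 0 counts in Rosa26 muscle. Both genes were therefore high in the same pair of libraries, Rosa26 aorta 3 at 160 CPM for H2-Aa and 155 CPM for H2-Eb1, and Rosa26 muscle 1 at 13.9 and 12.6 CPM. The positions of the panel's primers are not given in the sources used here, so whether they read the FVB and C57BL/6 alleles of these genes alike was not tested, and a count of 0 says only that the amplicon gave no reads. In each of the other 11 libraries H2-Aa stayed at or below 1.37 CPM and H2-Eb1 at or below 0.205 CPM.

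These libraries share a number. The deposited names carry a number beside the tissue, and 4 numbers occur once in aorta and once in muscle, number 50 in Rosa26 aorta 3 and Rosa26 muscle 1. Whether the number marks a mouse is not stated in the labels. The partner chain was read everywhere. H2-Ab1, the beta chain gene of I-A, stood at 25.5 and 20.7 CPM in dNdK aorta, against 40.6, 167, 126 and 49 CPM in Rosa26 aorta. The on-or-off reading of H2-Aa was thus not shared by the gene whose product pairs with its own.

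Setting each gene against Cd74 in the same library takes out the level of the pathway as a whole. The ratio compares libraries, not the abundance of 2 genes, since amplicons differ in yield. In the libraries numbered 50, H2-Aa had 9.38 reads per 100 Cd74 reads in aorta (95% exact counting interval 8.9 to 9.87) and 10.7 in muscle (8.62 to 13.1). H2-Eb1 had 9.11 (8.64 to 9.6) and 9.74 (7.8 to 12). The intervals of the 2 tissues overlapped for both genes. Elsewhere the highest ratio was 0.122 for H2-Aa and 0.0564 for H2-Eb1.

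The ratio of H2-Ab1 was highest in the libraries numbered 50 and 30. It was 7.42 (7 to 7.86) in aorta and 10.7 (8.62 to 13.1) in muscle for number 50, whose intervals did not overlap, and 8.57 (7.36 to 9.94) and 8.82 (6.91 to 11.1) for number 30, in Rosa26 aorta 4 and Rosa26 muscle 4. The other 9 libraries lay between 2.65 and 5.63, below these 4. Number 53 did not go together, at 2.65 (2.39 to 2.93) in aorta and 4.74 (3.76 to 5.9) in muscle. In the dNdK libraries alone the ratio ran from 4.63 to 5.63. Unmapped reads made up 7.21% and 7.45% in the aorta libraries numbered 50 and 30, against 5.62% or less in the other aorta libraries. In the muscle libraries of these numbers they made up 6.47% and 5.81%, against 5.18% to 6.13% in the other muscle libraries. The part of this in the ratio was not tested.

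**Figure D1:**
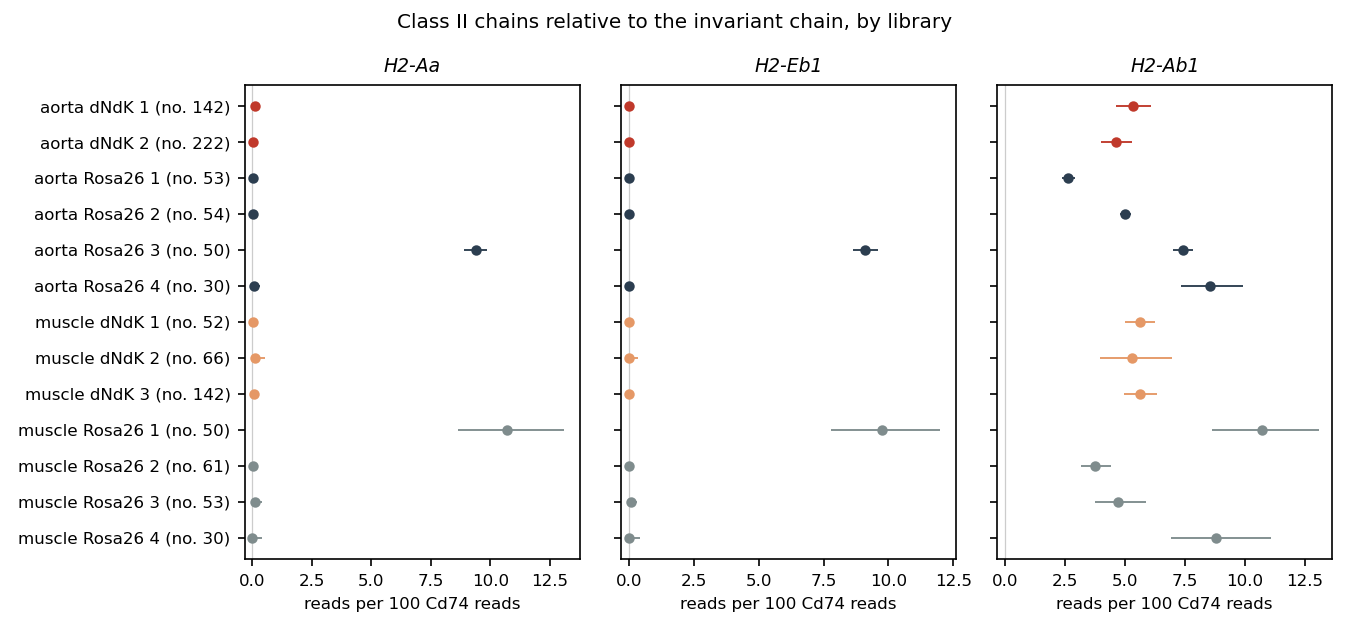
Reads of H2-Aa, H2-Eb1 and H2-Ab1 per 100 reads of Cd74 (x axis) in each of 13 libraries (y axis, with the number in the deposited name), with exact 95% counting intervals. H2-Aa and H2-Eb1 leave the zero line in the pair numbered 50 alone, at 9.11 to 10.7, while H2-Ab1 is read in all libraries and is above 7 in those numbered 50 and 30.

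H2-Ob, the beta chain gene of H2-O, had 27 counts (2.73 CPM) in Rosa26 aorta 3 and 0 or 1 count in each of the other 12 libraries, so it was not detectable in muscle at this depth. Other genes were then searched with a rule chosen after these values were seen. It asked for at least 20 counts in the pair numbered 50 and a summed CPM there at least 10 times the highest of any other library. It found 12 genes, of which 10 lie on chromosome 17, where 4.79% of the 11109 genes with enough counts lie. Of these, 8 lie between 34238905 and 36042742, from H2-Ob to H2-T22. The 12, the 10 and the 8 all include H2-Aa, H2-Eb1 and H2-Ob, whose values led to the rule. The share on chromosome 17 is thus partly built in and is no test. Not all were high in both libraries. In 7 of the 12 both libraries of the pair lay above every other library, and 5 of these 7 lie on chromosome 17, H2-Aa and H2-Eb1 among them. The other 5, H2-Ob, Lst1, H2-Q10, Ppp1r18 and Arhgap28, passed through Rosa26 aorta 3 alone. H2-T22, a class I gene, had 242 counts in Rosa26 aorta 3 and 51 in Rosa26 muscle 1, and at most 3 in any other library. H2-Q10, also a class I gene, had 879 counts in Rosa26 aorta 3 but 3 in Rosa26 muscle 1, and at most 7 in any other library. D17H6S56E-5 had 120 and 6 counts in the pair and 0 elsewhere. The genes outside this stretch were Mrps10 and Arhgap28 on chromosome 17, Rpl34 on chromosome 3 and Prg2 on chromosome 2. By the opposite rule, 0 genes were near absent in the pair and read in all other libraries.

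**Figure D2:**
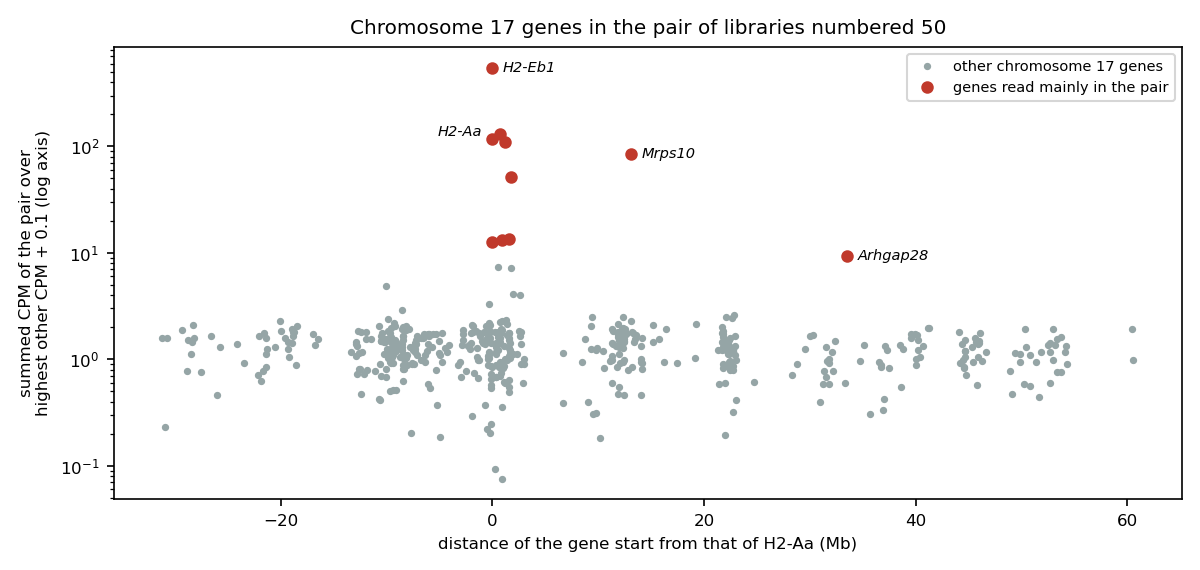
Summed CPM of the 2 libraries numbered 50 over the highest CPM of the other 11 plus 0.1 (y axis, log scale) for chromosome 17 genes with at least 20 counts in the pair, by distance of the gene start from that of H2-Aa (x axis, Mb). The 10 genes found by the rule are red, and 8 of them stand close to H2-Aa. Both counts include H2-Aa, H2-Eb1 and H2-Ob, whose values led to the rule.

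In dNdK aorta the class II genes were lower in estimate, and none passed the test. Cd74 stood at 479 and 446 CPM in dNdK aorta 1 and 2, against 1529, 3315, 1704 and 571 CPM in Rosa26 aorta 1 to 4. Both dNdK libraries lay below all Rosa26 libraries, with Rosa26 4 nearest. The log2 fold change was −1.77 (SE 0.56), with an unadjusted p = 0.0131 and an adjusted p = 0.757 by the edgeR quasi-likelihood test. In whole tissue, fewer cells of a type and less RNA per cell cannot be told apart.

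H2-Ab1, with the values given above, had a log2 fold change of −1.89 (SE 0.57), and its groups did not overlap. Ciita stood at 2.91 and 3.27 CPM in dNdK aorta, against 7.29, 21.6, 13.9 and 5.87 CPM in Rosa26 aorta. Its groups did not overlap either, and the log2 fold change was −1.82 (SE 0.55). Rosa26 2 and 3 were the highest of the 6 for both genes. The adjusted p was 0.757 for H2-Ab1, Ciita and H2-DMb2 alike.

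Among the editors, H2-DMb2 had 5 counts in each dNdK aorta library, against 18, 51, 55 and 6 in Rosa26 aorta. That is 0.583 and 0.467 CPM in dNdK against 1.53 to 5.57 CPM in Rosa26, without overlap (log2 fold change −2.47, SE 0.74). Its neighbour H2-DMb1, the other beta chain gene of H2-DM, stood at 8.16 and 8.32 CPM in dNdK aorta, against 17.8, 31.9, 15 and 4.08 CPM in Rosa26 aorta. Here Rosa26 4 lay below both dNdK libraries, and the log2 fold change was −0.90 (SE 0.61). The 2 transcripts agree at 95.5% of 1058 aligned bases (GENCODE M21), so reads may have been split between them and each value is uncertain. H2-DMa, their alpha chain partner, stood at 5.48 and 7.66 CPM in dNdK aorta, against 15.8, 60.7, 11.5 and 6.63 CPM in Rosa26 aorta, overlapping at Rosa26 4 (log2 fold change −1.68, SE 0.82).

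H2-Oa, the alpha chain gene of H2-O, had 13 and 9 counts in dNdK aorta, against 31, 130, 21 and 3 in Rosa26 aorta (log2 fold change −1.67, SE 0.95). The fold change of H2-Aa rests on 1 library: 6 counts in dNdK aorta stood against 1601 in Rosa26 aorta, a ratio of pooled CPM of 0.00698 (0.00256 to 0.0152), and without Rosa26 3 against 22 counts, a ratio of 0.369 (0.122 to 0.937). H2-Eb1 had 0 counts against 1536, at least 275-fold lower against a floor of 3 counts over the dNdK group. Without Rosa26 3 it had 0 against 2 counts, both under the floor.

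**Figure D3:**
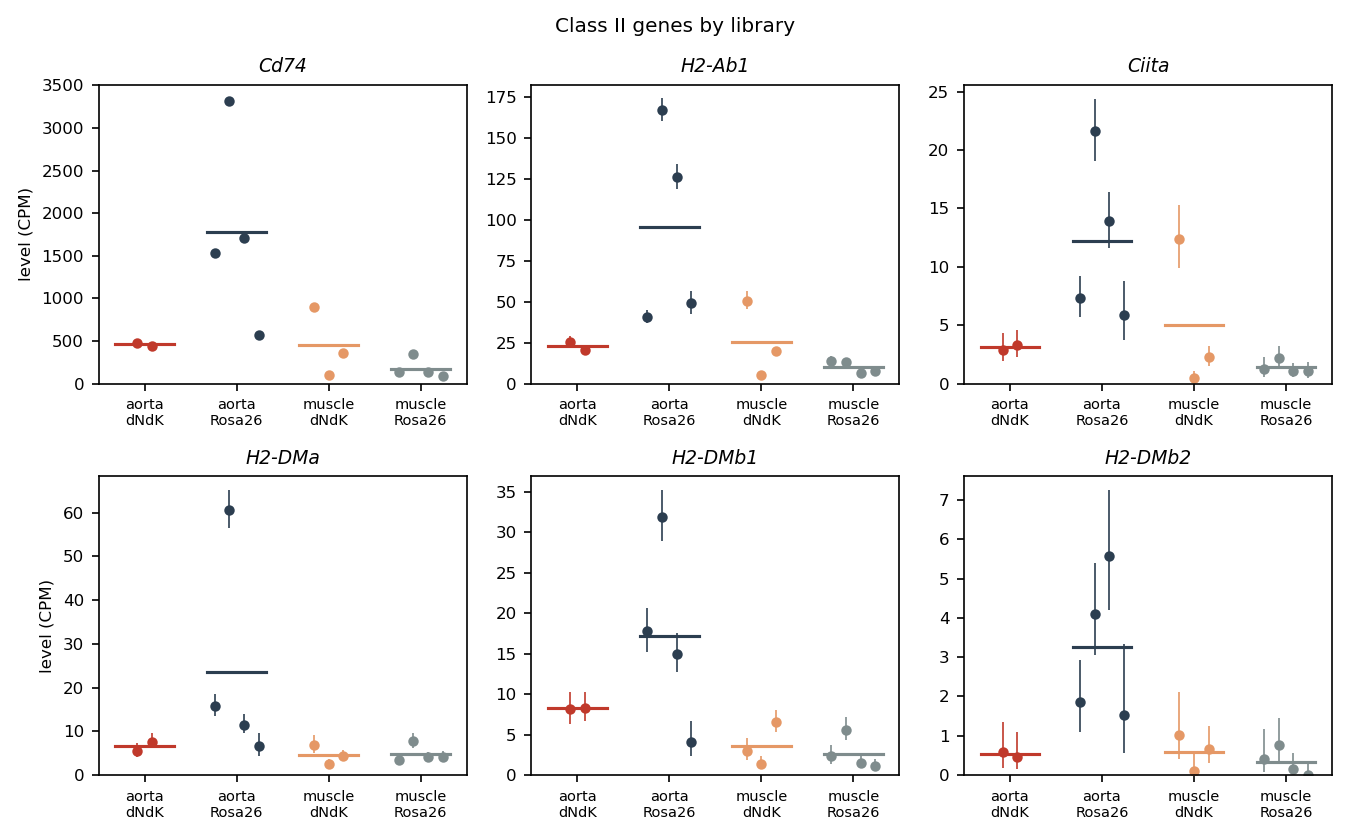
Level in CPM (y axis, from 0) of 6 class II genes in each library, by group (x axis), with exact 95% counting intervals as bars and the group mean as a line. In aorta the 2 dNdK points lie below all Rosa26 points for Cd74, H2-Ab1, Ciita and H2-DMb2. In muscle 1 dNdK library is the highest for Cd74, H2-Ab1 and Ciita.

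Of the 10 genes, 8 passed the filter on low counts in aorta and were tested. By edgeR none was called, where 1 of all 11920 genes was called (0.00839%), and DESeq2 called 13 genes, none of them a member. H2-Aa passed the filter through Rosa26 3 and, with 17 counts, Rosa26 2. Its fold change rests on Rosa26 3, and it is left out of the counts that follow. These counts describe the genes tested and not the pathway as a whole. The other 7 estimates were lower, beside 54.2% of all genes. An unadjusted p under 0.05 with a lower estimate was found for 4 of the 7, beside 3.65% of all genes, and groups without overlap for the same 4, beside 13.8%. The median log2 fold change of the 7 was −1.77, against −0.05 for all genes tested. H2-DMb2 is among the 4. With 5 counts in each dNdK library it passed the filter through Rosa26 libraries alone, so its direction was partly set by the filter.

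The aorta libraries differed in their reads. Unmapped reads made up 4.75% and 4.62% in dNdK, 5.62% and 5.28% in Rosa26 1 and 2, and 7.21% and 7.45% in Rosa26 3 and 4. With Rosa26 3 and 4 left out, a setting chosen after this was seen, the median over the members other than H2-Aa and H2-Eb1 was −2.20, against −1.77 with all libraries. Cd74 then passed the test (log2 fold change −2.20, edgeR adjusted p = 0.0281), as the only member among 179 genes called. With Rosa26 1 and 2 left out instead, the median was −1.14, 264 genes were called and none was a member. H2-DMa then had −0.35, H2-DMb1 −0.10 and H2-Oa −0.25. Libraries 3 and 4 hold Rosa26 mice alone, so no genotype difference could be taken among them.

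In dNdK muscle the class II genes were higher in estimate through 1 or 2 of 3 libraries, and none passed the test. Cd74 stood at 902, 97.4 and 356 CPM in dNdK muscle 1 to 3, against 130, 347, 135 and 83.5 CPM in Rosa26 muscle 1 to 4. Of the dNdK libraries, dNdK 1 and, by little, dNdK 3 lay above the Rosa26 range and dNdK 2 inside it. The log2 fold change was 1.32 (SE 0.70, edgeR adjusted p = 0.69).

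H2-Ab1 followed the same order of dNdK libraries, at 50.6, 5.17 and 20 CPM in dNdK muscle against 13.9, 13, 6.4 and 7.36 CPM in Rosa26 muscle (log2 fold change 1.24, SE 0.65, edgeR adjusted p = 0.686). Ciita stood at 12.4, 0.47 and 2.27 CPM in dNdK muscle, against 1.21, 2.21, 1.07 and 1.03 CPM in Rosa26 muscle. Its dNdK 2 value, 5 counts, was the lowest of the 7 libraries and its dNdK 1 value the highest. The log2 fold change was 1.79 (SE 0.90, edgeR adjusted p = 0.671).

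None of the editors passed either. H2-DMa stood at 2.44 to 6.92 CPM in dNdK muscle and 3.36 to 7.74 CPM in Rosa26 muscle (log2 fold change −0.18, SE 0.46). H2-DMb1 stood at 2.94, 1.41 and 6.58 CPM in dNdK muscle, against 2.29, 5.61, 1.52 and 1.12 CPM in Rosa26 muscle (log2 fold change 0.31, SE 0.64). H2-DMb2 had at most 9 counts in any muscle library and H2-Oa at most 8, and neither was tested.

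Of the 10 genes, 5 were tested in muscle, where 0 of all 10491 genes were called (0.00%). By edgeR 792 genes had an unadjusted p under 0.05, none of them a class II member, and DESeq2 called 7, none of them a member. For the members, 4 of 5 estimates were higher, beside 53.1% of all genes, and 0 of 5 had groups without overlap, beside 5.36% of all genes without overlap and higher and 1.31% without overlap and lower. Without dNdK muscle 1 the median was 0.07, against 1.24 with all libraries, Ciita had −0.23, and 3 genes were called, none of them a member.

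In Rosa26 mice the class II genes were higher in aorta than in muscle. Cd74, at 571 to 3315 CPM in aorta and 83.5 to 347 CPM in muscle, had a log2 fold change of 2.45 (SE 0.53, edgeR adjusted p = 0.00246). H2-Ab1, at 40.6 to 167 CPM in aorta and 6.4 to 13.9 CPM in muscle, had 2.34 (SE 0.45, adjusted p = 0.0013). Ciita, at 5.87 to 21.6 CPM in aorta and 1.03 to 2.21 CPM in muscle, had 2.24 (SE 0.45, adjusted p = 0.00165). None of these 3 had overlapping groups. These folds are on the TMM scale. With scaling by library size alone, the median of the tested members was 3.20, against 2.29, and that of all genes 0.96, against 0.08.

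The editors were less uniform. H2-DMb2 rose to 1.53 to 5.57 CPM in aorta, against 0 to 0.765 CPM in muscle (log2 fold change 2.43, SE 0.75, edgeR adjusted p = 0.017). H2-DMb1, at 4.08 to 31.9 CPM in aorta and 1.12 to 5.61 CPM in muscle, overlapped and had 1.81 (SE 0.59, adjusted p = 0.0228). H2-DMa, at 6.63 to 60.7 CPM in aorta and 3.36 to 7.74 CPM in muscle, did not pass (1.39, SE 0.59, adjusted p = 0.0628). H2-DMa passed in 5 of 16 alternatives, with the lowest adjusted p of 0.00808 by library size alone, and had 0.39 without Rosa26 aorta 2. H2-Oa had 185 counts in aorta against 9 in muscle, a ratio of pooled CPM of 24.6 (exact 95% counting interval 12.7 to 54.7), and was not tested. Of these counts, 130 of the 185 lay in Rosa26 aorta 2 and 8 of the 9 in Rosa26 muscle 2.

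Thus 5 of 6 tested members were called higher in Rosa26 aorta and 0 lower, beside 31.0% higher and 27.5% lower of all 11058 genes tested. By library size alone the calls over all genes were 6254 higher and 1298 lower, against 3424 and 3038. Of the members, 4 of 6 had groups without overlap in CPM, beside 50.7% of all genes. H2-DMb2 is among the 5 and among the 4. At or below 0.765 CPM in Rosa26 muscle, it passed the filter through aorta alone, so its direction was partly set by the filter. The calls of both H2-DMb genes depended on single libraries. Without Rosa26 aorta 2, or Rosa26 muscle 1, 3 or 4, H2-DMb1 had adjusted p = 0.0759, 0.0563, 0.0657 and 0.062, and without Rosa26 muscle 3 H2-DMb2 had 0.0586.

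The difference between the tissues could also be read within a number. For number 53 the aorta over muscle ratio of Cd74 CPM was 11.3 (10.8 to 11.9), for number 50 it was 13.1 (12.3 to 14) and for number 30 it was 6.84 (6.33 to 7.4), all Rosa26. For number 142, dNdK aorta 1 and dNdK muscle 3, it was 1.35 (1.29 to 1.4). Ciita gave 6.84, 11.5 and 5.72 for numbers 53, 50 and 30, and 1.29 (0.728 to 2.25) for number 142. H2-Aa and H2-Eb1 gave 11.5 (9.45 to 14.2) and 12.3 (9.97 to 15.3) for number 50, whose intervals overlapped that of Cd74. These intervals cover counting error only, and the ratios are of plain CPM, without TMM scaling. In dNdK muscle 3 of number 142, 4 fat genes summed to 1549 CPM, against 38.2 CPM or less in Rosa26 muscle. The part of this in its ratios was not tested.

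In dNdK mice no member was called between the tissues. Cd74 stood at 479 and 446 CPM in aorta, inside the 97.4 to 902 CPM of muscle (log2 fold change −0.62, SE 0.88, edgeR adjusted p = 0.659). H2-Ab1 had −0.77 (SE 0.87), Ciita −1.34 (SE 1.24), H2-DMa −0.07 (SE 0.55) and H2-DMb1 0.62 (SE 0.59). The count of 0 of 5 stands beside 15.8% called of all 11426 genes. H2-DMb1, at 8.16 and 8.32 CPM in aorta and 1.41 to 6.58 CPM in muscle, was the 1 of 5 without overlap, higher in aorta, beside 49.7% of all genes. With library size alone Cd74 had 0.04 and H2-DMa 0.53. Without dNdK muscle 1 their median was 0.56, against −0.62 with all libraries, and Cd74, H2-Ab1, Ciita and H2-DMa turned to higher estimates in aorta, still without a call.

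**Figure D4:**
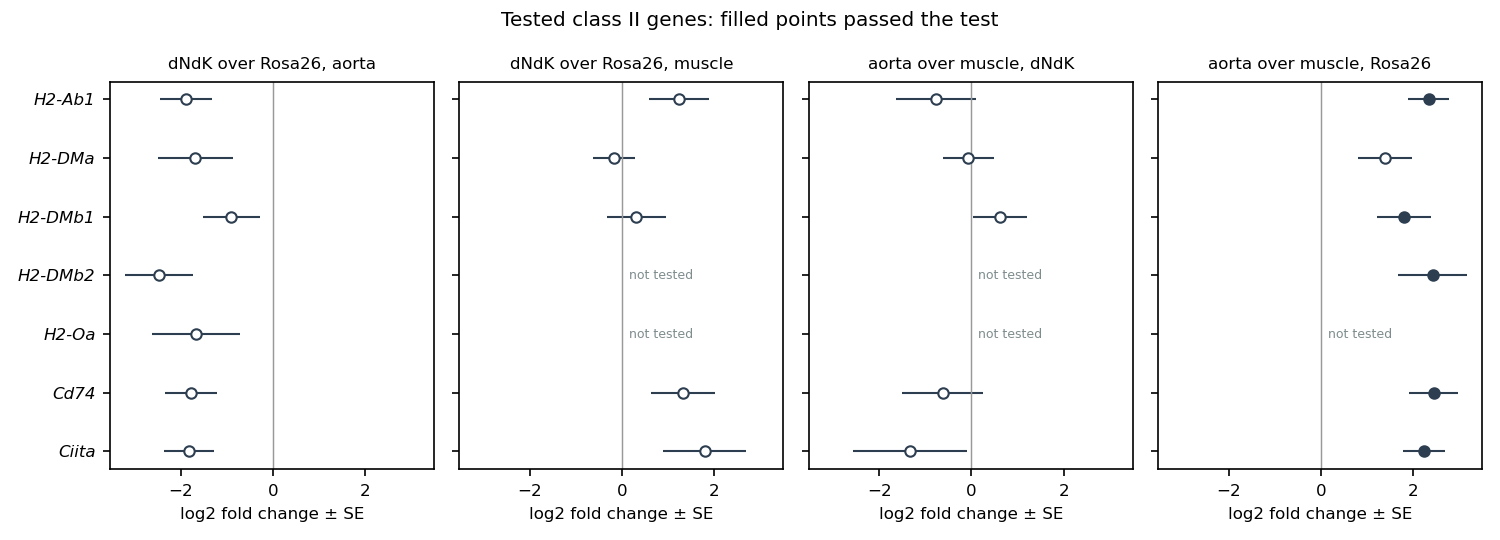
Log2 fold change ± SE (x axis) of the 7 members other than H2-Aa, H2-Eb1 and H2-Ob in 4 comparisons (panels), with filled points for an edgeR adjusted p under 0.05. Calls stand in the Rosa26 tissue comparison alone, where 5 points are filled.

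The genotype effect itself was compared between the tissues in 1 fit of all 13 libraries. Its estimates, aorta minus muscle, were −3.06 (SE 1.08) for Cd74, −3.09 (SE 1.01) for H2-Ab1, −3.57 (SE 1.24) for Ciita and −3.12 (SE 1.40) for H2-DMb2. These had unadjusted p of 0.0139, 0.00882, 0.0131 and 0.0442 and an adjusted p of 0.583 each by edgeR. H2-DMa, H2-DMb1 and H2-Oa had −1.46 (SE 0.95), −1.18 (SE 0.96) and −2.08 (SE 1.77). Of 12318 genes tested 0 were called (0.00%), 1044 had an unadjusted p under 0.05, and DESeq2 called 6, none of them a member. The 7 members tested other than H2-Aa and H2-Eb1, which passed the filter through the pair numbered 50, had lower estimates, beside 56.2% of all genes, and 4 of them an unadjusted p under 0.05, beside 6.56%. H2-DMb2, among these 4, reached the level of the filter only in Rosa26 aorta and, with 7 counts, in dNdK muscle 1. A difference between the tissues was thus not established for any member. Without dNdK muscle 1 the median over the members other than H2-Aa and H2-Eb1 was −1.57, against −3.06.

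The factors that hold CIITA at the promoter were tested as a list. In dNdK aorta 0 of 6 tested promoter factors were called and 3 estimates were lower (median log2 fold change 0.02), with Nfya, an NF-Y subunit, at −0.53 (SE 0.28) and Rfx5, an RFX subunit, at 0.38 (SE 0.47). In dNdK muscle 0 of 6 were called and 4 were higher in estimate (median 0.01), beside 53.1% of all genes. In dNdK aorta 54.2% of all genes were lower in estimate. In Rosa26 mice Nfya rose in aorta (1.39, SE 0.24, edgeR adjusted p = 0.000665). Nfyb, another NF-Y subunit, fell in aorta (−2.47, SE 0.21, adjusted p = 4.53e-06), as did Rfxap (−1.09, SE 0.26, adjusted p = 0.00411) and Rfx5 (−1.34, SE 0.38, adjusted p = 0.0109). In all, 2 of 6 were called higher and 3 lower there, beside 31.0% and 27.5% of all genes. With library size alone 3 of 6 were called higher and 1, Nfyb, lower, beside 6254 higher and 1298 lower of all 11058 genes. Rfxap then had −0.21 (edgeR adjusted p = 0.489) and Rfx5 −0.43 (adjusted p = 0.359), so the lower calls of both rest on the scaling. Nfyc was at 0 counts in every library. H2-Eb2, a class II gene beside H2-Eb1, had 1 and 3 counts in dNdK aorta, against 21, 43, 12 and 1 in Rosa26 aorta (log2 fold change −2.94, SE 1.06, edgeR adjusted p = 0.757). At or below 0.28 CPM in dNdK aorta, it passed the filter through Rosa26 libraries alone, so its direction was partly set by the filter. Rosa26 4, at 0.255 CPM, lay inside the dNdK range.

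Of the genes that prepare peptides 5 of 8 were called higher in Rosa26 aorta than in Rosa26 muscle, beside 31.0% of all genes. With library size alone 8 of 8 were called higher, beside 6254 of all 11058 genes. None of the 8 was called in either genotype contrast. Ctss, the cathepsin that trims the invariant chain, stood at 17.5 and 13.5 CPM in dNdK aorta, against 42.9, 116, 24.7 and 13 CPM in Rosa26 aorta (log2 fold change −1.50, SE 0.75). Rosa26 4 was again the lowest. In the tissue contrast of Rosa26 mice Ctss had 1.94 (SE 0.65, edgeR adjusted p = 0.0243), Ifi30, the lysosomal thiol reductase, 1.70 (SE 0.35, adjusted p = 0.00179), and Ctsz and Ctsh, cathepsins, 3.33 (SE 0.25, adjusted p = 1.99e-06) and 1.62 (SE 0.43, adjusted p = 0.00786).

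In the interferon gamma axis 0 of 8 tested genes were called in either genotype contrast. In dNdK aorta 6 estimates were lower (median log2 fold change −0.42), beside 54.2% of all genes. In dNdK muscle 6 were higher (median 0.76), beside 53.1%. Ifng itself had 6 and 8 counts in dNdK aorta, against 3, 7, 5 and 0 in Rosa26 aorta, and at most 2 in any muscle library. Cxcl9, a chemokine induced by interferon gamma, had −1.25 (SE 0.70, edgeR adjusted p = 0.757) in dNdK aorta and 3.39 (SE 0.94, adjusted p = 0.656) in dNdK muscle. Socs1, an inhibitor of cytokine signalling, was at 0 counts throughout. In Rosa26 mice, with library size alone, 5 of 8 genes were called higher in aorta and 1, Ifngr2, lower, beside 6254 and 1298 of all 11058 genes. On the TMM scale 4 of the 8 were called higher and 3 lower, beside 31.0% and 27.5% of all genes. Among them were Cxcl9 (4.21, SE 0.67, adjusted p = 0.000393), Irf1, a transcription factor of the response (2.16, SE 0.25, adjusted p = 4.77e-05), and the receptor chains Ifngr1 (1.00, SE 0.20, adjusted p = 0.00152) and Ifngr2 (−2.78, SE 0.22, adjusted p = 3e-06).

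Class I presentation genes gave 7 lower estimates of 8 in dNdK aorta (median log2 fold change −0.48) and 8 higher of 8 in dNdK muscle (median 1.21), with 0 called in both. Of all genes, 54.2% were lower in estimate in dNdK aorta and 53.1% higher in dNdK muscle. Tap1, the peptide transporter, stood at 10.8 and 14.8 CPM in dNdK aorta, against 33.4, 91.6, 61.7 and 17.1 CPM in Rosa26 aorta (−1.82, SE 0.58, edgeR adjusted p = 0.757). In Rosa26 mice all 8 tested were called higher in aorta, and so were all 5 tested costimulation genes, beside 31.0% of all genes. Cd40, at or below 0.61 CPM in Rosa26 muscle, passed the filter through aorta alone. Cd274, the PD-L1 gene, had −1.18 (SE 0.30, adjusted p = 0.757) in dNdK aorta and 3.12 (SE 0.50, adjusted p = 0.000402) in aorta over muscle of Rosa26 mice. Costimulation genes had 5 of 5 lower estimates in dNdK aorta and 2 of 3 higher in dNdK muscle, with 0 called. They stand beside the same shares of all genes. Cd80, at 0.816 and 0.934 CPM in dNdK aorta, passed the aorta filter through Rosa26 libraries alone.

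Markers of cells that present antigen were set beside the class II genes, and their part in the results was not tested. The summed level of 9 B cell markers was 21.3 and 11.6 CPM in dNdK aorta, against 190, 580, 53.4 and 3.57 CPM in Rosa26 aorta. In muscle it was 41.1, 1.03 and 7.02 CPM in dNdK against 1.21, 16.1, 0.914 and 0.746 CPM in Rosa26. The B cell level thus spanned a wider range than Cd74 within Rosa26 aorta.

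The summed level of 10 dendritic cell markers was 42.1 and 45.1 CPM in dNdK aorta against 77.3 to 155 CPM in Rosa26 aorta, without overlap. Of all single genes tested, 13.8% lay lower without overlap there. In muscle the dendritic cell sum was 22.8 to 43.3 CPM in dNdK against 19.4 to 27.4 CPM in Rosa26. That of 12 macrophage markers was 159 and 117 CPM in dNdK aorta against 143 to 299 CPM in Rosa26 aorta, and 70.9 to 116 CPM against 35.1 to 88.8 CPM in muscle. That of 5 leukocyte genes was 76.6 and 54 CPM in dNdK aorta against 70.7 to 650 CPM in Rosa26 aorta, and 11.2 to 87.6 CPM against 12 to 35.8 CPM in muscle. That of 8 T cell genes was 26.1 and 27.4 CPM in dNdK aorta against 18.6 to 142 CPM in Rosa26 aorta, and 1.69 to 13.9 CPM against 0.672 to 3.83 CPM in muscle. Most of the dendritic cell sum in aorta came from Zbtb46 (mean 23.8 CPM in dNdK, 44.4 in Rosa26) and Irf8 (12.9 and 44.8). Siglech went the other way (1.32 and 0.67).

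In dNdK aorta 7 of 7 tested B cell genes, 8 of 9 dendritic cell genes, 11 of 11 macrophage genes, 8 of 8 T cell genes and 5 of 5 leukocyte genes had lower estimates, with 0 called. Of all genes tested there, 54.2% had lower estimates. Blk, Fcer2a, Flt3, Xcr1, Cd209a, Ccr7, Cd3d, Cd8b1 and Cd28, at or below 0.933 CPM in dNdK aorta, passed the filter through Rosa26 libraries alone. Their direction was thus partly set by the filter. Itgam, an integrin chain of myeloid cells, had −1.98 (SE 0.54) on the log2 scale, Ccr7, which guides dendritic and T cells to lymph nodes, −2.82 (SE 0.82), and Pax5, a transcription factor of B cells, −3.30 (SE 1.34), with an edgeR adjusted p of 0.757 each. In dNdK muscle 0 were called, and 4 of 4, 3 of 3, 7 of 9, 1 of 1 and 5 of 5 were higher in estimate in the same order of lists. Of all genes tested in muscle, 53.1% were higher in estimate. In Rosa26 mice 5 of 5 B cell, 3 of 5 dendritic cell, 9 of 11 macrophage, 5 of 5 T cell and 5 of 5 leukocyte genes were called higher in aorta, beside 31.0% of all genes. Of the 5 tested T cell genes, Cd8b1, Cd3e, Cd28 and Lag3 passed the filter through aorta alone, at or below 0.85 CPM in Rosa26 muscle. Others, such as Ccr7 and Fcgr1, did so too, and the direction of these genes was partly set by the filter. Cd3g, the remaining T cell gene, was at most 1.11 CPM in Rosa26 muscle. Groups were without overlap for 0 of 5 B cell, 4 of 5 dendritic cell and 9 of 11 macrophage genes. It was 5 of 5 for T cell and 2 of 5 for leukocyte genes, beside 50.7% of all genes. In dNdK mice 0 genes of these 5 lists were called between the tissues, beside 15.8% of all genes.

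The other tissues' markers were set beside these. Fat genes summed to 7721 to 12293 CPM in all aorta libraries and to 1549 CPM in dNdK muscle 3, against 38.2 CPM or less in Rosa26 muscle. In muscle Cd74, H2-Ab1 and Ciita were highest in dNdK 1 and H2-DMb1 in dNdK 3, and the part of the fat genes was not tested. Of the tested fat, heart muscle and smooth muscle genes, 4 of 4, 2 of 2 and 3 of 4 were called higher in Rosa26 aorta than in muscle, beside 31.0% of all genes. All 4 skeletal muscle genes were called lower, beside 27.5%. The heart muscle genes summed to 2016, 895, 6.17 and 1.79 CPM in Rosa26 aorta 1 to 4, so their calls rest on Rosa26 aorta 1 and 2. No gene of these lists was called between the genotypes.

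**Figure D5:**
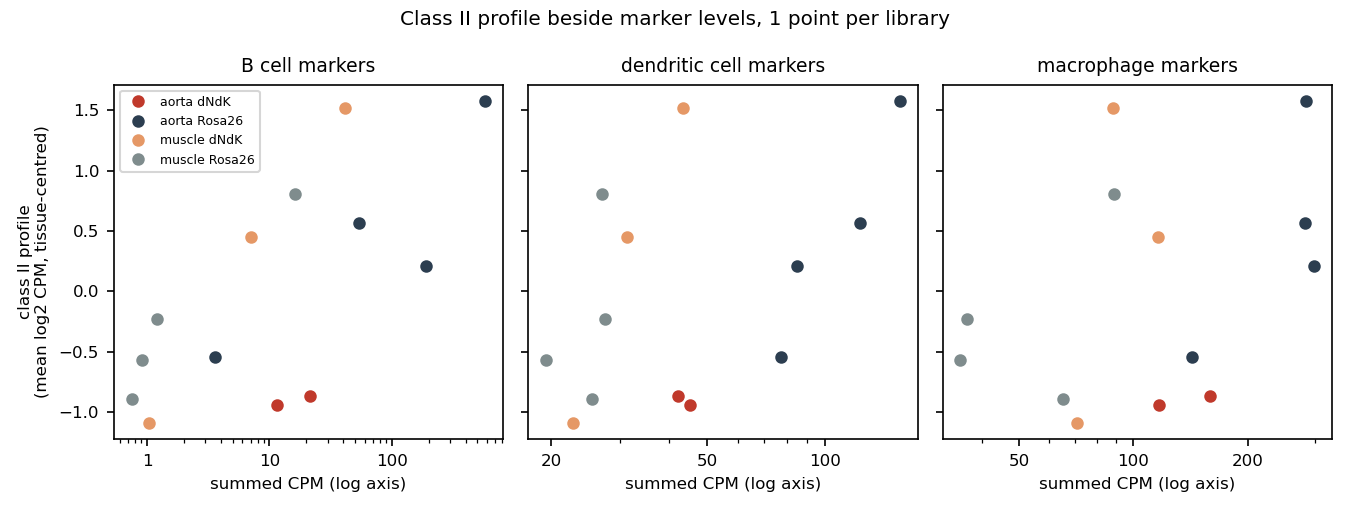
Mean log2 CPM of 7 class II genes, centred on each tissue (y axis), against the summed CPM of B cell, dendritic cell and macrophage markers (x axes, log scale), 1 point per library. Rosa26 aorta 2 and dNdK muscle 1 have the highest class II values, 1.58 and 1.52, with B cell sums of 580 and 41.1 CPM, the highest of their tissues. Their dendritic cell sums, 155 and 43.3 CPM, are also the highest of their tissues, but their macrophage sums, 285 and 88.2 CPM, are not.

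The class II genes varied together from library to library. Levels were taken as log2 CPM and centred on each tissue, so a correlation is over 13 libraries that share their scaling, and 8 of which share a number with another. Over the 21 pairs of 7 members without H2-Aa and H2-Eb1, Pearson r ran from 0.56 for H2-DMb1 and Ciita to 0.95 for H2-Ab1 and Ciita, with a median of 0.77. Cd74 had r = 0.93 with Ciita, 0.88 with H2-Ab1 and 0.90 with H2-Oa. H2-Aa and H2-Eb1 had r = 0.97 with each other, resting on 1 pair of libraries, and 0.19 and 0.06 with Cd74.

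The genes most like the class II mean without H2-Aa, over 12309 genes, were Gcsam, a germinal centre gene (r = 0.95), Dgka, a diacylglycerol kinase (0.94), H2-Q6, a class I gene (0.93), Mxd3, a partner of MAX (0.92), Panx1, a membrane channel (0.90), and Tap1 (0.90). That mean still held H2-Eb1. With H2-Eb1 left out as well, a setting chosen after its values were seen, the 6 genes were Pld4, a phospholipase D family member (0.95), Cd52, a leukocyte surface antigen (0.95), Limd2 (0.94), Wdfy4, needed by dendritic cells for cross-presentation (0.94), Gcsam (0.93) and Tap1 (0.93). Only Gcsam and Tap1 were on both lists. Against the mean of the 7 members, dendritic cell markers ran from −0.12 for Siglech to 0.89 for Ccr7, macrophage markers from −0.07 for Lyve1 to 0.73 for C1qb, and leukocyte genes from 0.75 for Ptprc to 0.95 for Cd52. Of the B cell markers Fcer2a had the lowest r, 0.55, and Pax5 the highest, 0.93. Psmb8, an immunoproteasome subunit, had 0.89, Irf1 0.69 and Rfx5 −0.33. These values describe the 13 libraries and name no shared control.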

How the data were processed

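RNA from aorta and gastrocnemius was reverse transcribed from 10 ng, amplified for 12 cycles with an AmpliSeq mouse transcriptome primer pool and read on an Ion Torrent sequencer, per the labels' protocols. An amplicon covers part of a transcript and has no molecular identifier, so reads are not independent molecules, levels of different genes cannot be compared, and intervals and floors cover counting error only. The authors deposited raw counts per gene, 1 table per library. STAR 2.5.2b, edgeR 3.28.1, limma 3.42.2 and the builds mm10 and GRCm38.p6 are named in the submitters' processing notes. Reads assigned to genes were 86.66% to 91.42% of each table, and the 4 summary lines were left out. The column for either strand was used, since 46.34% to 49.33% of reads fell on the first strand. Without strand, overlapping antisense reads cannot be told apart.

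Counts were filtered with filterByExpr (minimum count 10, minimum total 15), scaled by TMM and tested with the quasi-likelihood test of edgeR 4.0.16 in R 4.3.3, in each tissue or genotype alone and, for the difference of effects, in all 13 libraries. The Benjamini-Hochberg adjustment ran over every gene tested (threshold 0.05). The SE of a log2 fold change is its size over the square root of the F statistic. Group overlap was judged on plain CPM. The scripts were tested on simulated data. Class II profiles used log2 CPM with a prior count of 2. Gene positions and symbols came from RefSeq GRCm38.p6, which 19636 symbols matched.

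The 10 genes, the other lists and the rule for named genes (all 10 members, up to 4 called genes or the 2 with the smallest p of each other list, and the 6 genes of most like pattern) were chosen with earlier results of these data known, as was the X box pattern, shortened after a longer form had been searched and had matched H2-Oa at another place. Genes named outside that rule, and the search for genes read in 1 pair of libraries, were picked once values were known. The numbers in the titles did not pair the libraries (correlations of same-numbered deviations −0.34 to 0.28). The numbers shared by the deposited names gave 0.22, 0.27 and 0.23 over the 3 Rosa26 pairs and 0.14 for the dNdK pair. A fit with limma 3.58.1 (voom) and the shared number as a random block changed no call of a member between the Rosa26 tissues. Alternatives were other scalings, DESeq2 1.42.0, no filter, each strand alone, a block and libraries left out. Some genes of the lists are not reported here.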

Additional observations from a re-analysis of the deposited data

Results flagged for a closer look

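In groups of 4 libraries, a library was taken as standing apart where its gap to the nearest other, over the group's range, passed Dixon's 95% critical value. For normal, independent values about 1 in 20 groups would be flagged, and 8 of 19 were flagged here. Plain CPM of genes that vary together need not meet this, so the 2 shares are no test. The 8 include H2-Aa, H2-Eb1 and H2-Ob, already known to be read on or off. Rosa26 aorta 3 stood apart for H2-Aa (160 CPM), H2-Eb1 (155 CPM) and H2-Ob (2.73 CPM). Rosa26 muscle 1, which shares its number, stood apart for H2-Aa (13.9 CPM) and H2-Eb1 (12.6 CPM). Rosa26 aorta 2 stood apart for H2-DMa (60.7 CPM), and is also the aorta library with the highest B cell marker sum (580 CPM). It likewise had the highest dendritic cell (155 CPM), T cell (142 CPM) and leukocyte (650 CPM) sums in aorta, but not the highest macrophage sum. Rosa26 muscle 2 stood apart for Ciita (2.21 CPM) and H2-Oa (0.68 CPM, 8 counts), and has the highest B cell marker sum of the Rosa26 muscle libraries (16.1 CPM). Its macrophage (88.8 CPM), T cell (3.83 CPM) and leukocyte (35.8 CPM) sums were also the highest of these libraries, but not its dendritic cell sum. The part of these markers was not tested.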

How the results depend on the processing

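Over 498 alternative values of single members, 483 kept their direction and 15 turned. In aorta, dNdK against Rosa26, 1 gene was called. DESeq2 called 13 genes, either strand alone 0, the 3 libraries with heart muscle RNA left out 30, Rosa26 1 and 2 left out 264, and Rosa26 3 and 4 left out 179 with 1 member. Single libraries left out gave 0 to 1. With the replicate block on the number in the titles, which does not pair the libraries, 163 genes and 2 members were called, Cd74 (−2.10, edgeR adjusted p = 0.0203) and H2-DMa (−2.11, adjusted p = 0.0445). Without the libraries with heart muscle RNA H2-Oa turned to 0.13, H2-DMa had −0.63, H2-DMb1 −0.11, and the median was −1.10. In muscle DESeq2 called 7 genes, single libraries left out gave 0 to 3 with medians of 0.07 to 1.73, and the block on the title number called 0. There H2-DMa had 0.20 on the first strand alone and −0.70 to 0.14 without single libraries, Ciita −0.23 to 2.34, and H2-DMb1 −0.33 to 1.00. Between the Rosa26 tissues the median was 3.20 with library size alone, which also moved the median of all genes from 0.08 to 0.96 and the calls to 6254 higher and 1298 lower, and members called ran from 3, on the first strand alone, to 7, without Rosa26 aorta 4. Between the dNdK tissues, 1801 genes were called in the main fit, 3141 by DESeq2, 1145 on the first strand alone, 3035 with the title block, and 322 to 3126 without single libraries, whose medians ran from −1.10 to 0.56. Library size alone called 1582 higher and 730 lower there, and gave 0.53 for H2-DMa and 0.04 for Cd74. H2-DMa had 0.04 on the first strand. Without single libraries H2-DMa ran from −0.38 to 0.44, Cd74 from −1.10 to 0.56, Ciita from −1.89 to 0.68 and H2-Ab1 from −1.27 to 0.40. For the difference of effects DESeq2 called 6 genes, medians without single libraries ran from −3.62 to −1.57, and H2-Aa ran from −7.72 to 3.21. The causes were not tested. The random block could not be fitted for dNdK, which has 1 shared number. H2-Eb1 was not refitted, since whole groups hold 0 counts. Of the 6 genes most like the class II mean, 3 remained with H2-Aa included and 2 without H2-Eb1. With 2 dNdK aorta libraries, the SE of 0.56 for Cd74 sets how small a change could be seen.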

Other observations

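Nlrc5, the class I counterpart of Ciita, was chosen here after its values were seen. It had 61 and 0 counts in dNdK aorta 1 and 2, against 4, 3, 2 and 0 in Rosa26 aorta, and 0, 0 and 87 counts in dNdK muscle 1 to 3, against 1, 0, 0 and 0 in Rosa26 muscle. The 2 libraries with the highest counts, dNdK aorta 1 and dNdK muscle 3, share the number 142, which occurs in dNdK libraries alone.

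H2-DMb1 also differed between libraries in the strand of its reads. On the first strand lay 12 of 148 counts in Rosa26 aorta 3 and 1 of 16 in Rosa26 aorta 4, but 90 of 173 and 217 of 396 in Rosa26 aorta 1 and 2, and 27 of 70 and 53 of 89 in dNdK aorta. In Rosa26 muscle 1 to 4 it was 3 of 17, 21 of 66, 1 of 20 and 4 of 12. In dNdK muscle 1 to 3 it was 5 of 20, 7 of 15 and 38 of 90.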
